A study of Vitis vinifera with 27 samples.

Results

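In the latent buds of grapevine, 102 of the 35134 genes counted formed a group of transcripts that were high in the basal buds of node 2 at BBCH63 and BBCH77. They were chosen on their measured levels in CPM, the count of a gene scaled to the total count of its library. The mean at node 2 had to reach 5 CPM and at least 3 times both the node 5 and the node 10 mean, at each of these stages. The mean over the libraries of a stage had to change by less than 2-fold from BBCH63 to BBCH77 and by less than 16-fold from BBCH77 to BBCH90. The node limits alone were passed by 161 genes, of which 26 were beyond the first stage limit, 40 beyond the second and 8 beyond both. The ethylene-responsive transcription factor gene ERF020 (Vitvi18g02191) passed every limit and was left out by name, while the ALP1-like gene Vitvi11g00140, also left out by name, did not pass. The levels of node 2 against the other nodes at BBCH63 and BBCH77, and the steps between stages, are therefore a description and were not tested. The order of the nodes at BBCH90, the order of node 10 and node 5, and the libraries that the rule left aside were not used to choose the genes. The mean level of BBCH90 was used through the 16-fold limit. The 40 genes beyond that limit were all at 1/16 of the BBCH77 mean or less.

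All buds came from field-grown vines of Vitis vinifera cv. Merlot on Kober 5BB rootstock, pruned to spurs on a cordon, with no treatment that set groups apart. Nodes 2, 5 and 10 of the shoot were sampled at anthesis (BBCH63), cluster closure (BBCH77) and harvest (BBCH90) of a single season, which gave 9 groups of 3 biological replicates, each a pool of buds of 1 node. RNA-Seq reads were counted per gene in 27 libraries. Replicate 3 of node 10 at each stage was set aside as an outlier by the study and by the rule, which left 24 libraries, with 2 rather than 3 replicates at node 10. A pool of whole buds gives an average over tissues and shoots, so fewer cells of a type and less RNA per cell cannot be told apart.

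A latent bud of grapevine forms in the axil of a leaf and holds a compressed shoot, on which the inflorescence primordia of the next season are laid down during the summer. Position on the shoot also sets the age of a bud, since basal nodes are formed first. Basal buds of many cultivars bear fewer or smaller inflorescences than buds farther along the cane. None of the 102 genes carries a name in the sources used here, so 0 of them could be placed in a function list, and they are given by identifier without a role.

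Library totals ranged from 34531620 to 53307172 counts. The meristem gene VvSOC1 lay between 44.6 and 127 CPM and the meristem gene VvVFL between 2.03 and 13.2 CPM over the 24 libraries, so both were found in every bud library. A further meristem gene, VvTFL1A, lay between 0.0566 and 10.7 CPM, and at 0.258 CPM or less in the kept libraries of BBCH90. Some libraries stood apart from their labels. The library labelled BBCH90 node 10 replicate 3 held the same counts as BBCH63 node 2 replicate 2 at all 35134 genes, so it adds no measurement of its own. The library labelled BBCH77 node 2 replicate 3, which is among the 24 and entered the rule, and the library labelled BBCH63 node 10 replicate 3, which did not, are described first because the results rest on them.

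At BBCH63 the 102 genes made up between 3.63 and 4.21% of all counts at node 2. Their summed level was 36981, 36338 and 42118 CPM in the 3 node 2 libraries. At node 5 it was 6783, 6970 and 4362 CPM, and in the 2 kept libraries of node 10 it was 4589 and 4651 CPM. Node 2 was apart from both other nodes, as the rule asked of the node means, while the lowest library of node 5 lay below both of node 10. At BBCH77 the sum was 67161 and 52471 CPM in replicates 1 and 2 of node 2, above each node 2 library of BBCH63, but 4584 CPM in replicate 3. The libraries of nodes 5 and 10 at that stage lay between 4529 and 5914 CPM, a range that includes this replicate. At BBCH90 the node 2 libraries fell to 5509, 3635 and 3918 CPM, against 5832, 4319 and 3503 CPM at node 5 and 3888 and 3897 CPM at node 10, and the nodes overlapped.

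**Figure D1:**
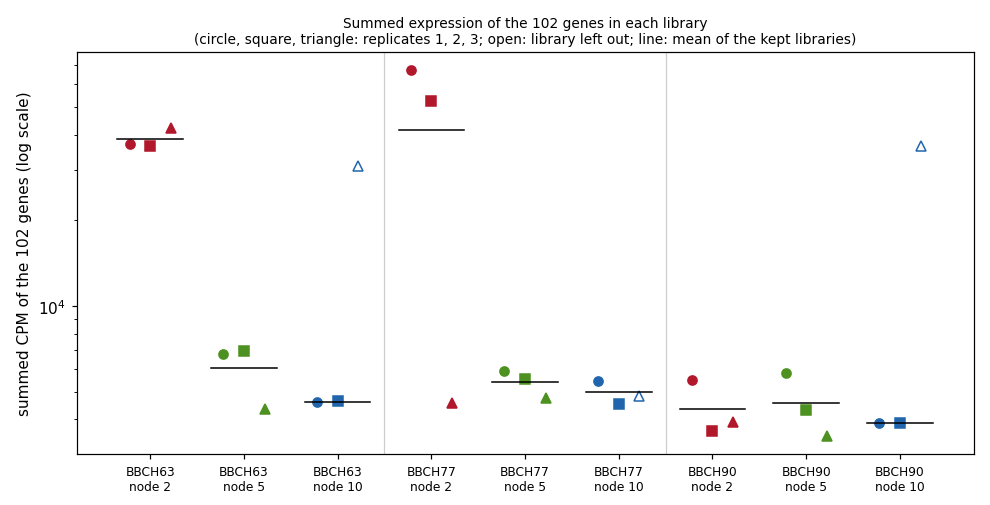
Summed CPM of the 102 genes (log scale) in each of the 27 libraries, by stage and node. Circles, squares and triangles are replicates 1, 2 and 3, open symbols are the libraries left out, and lines are means of the kept libraries. The node 2 libraries of BBCH63 and replicates 1 and 2 of BBCH77 lie at 36338 CPM or more, BBCH77 node 2 replicate 3 lies with nodes 5 and 10, and at BBCH90 no kept library exceeds 5832 CPM.

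Single genes followed the sum at BBCH63, where all 3 node 2 libraries were above all 5 kept libraries of nodes 5 and 10 for 102 of the 102 genes, as 8.45% of the 22999 genes tested were. At BBCH77 this held for 5 genes (1.48% of all genes), and with replicates 1 and 2 alone for 102 (10.7% of all genes). Nothing is read from these counts, since the rule used these levels. Replicate 3 of BBCH77 node 2 was below both other replicates for all 102 genes, at a median of 0.0937 times their mean. It was 0.860 times the mean of nodes 5 and 10 of that stage, and 97 of the 102 genes were at or below the highest library of nodes 5 and 10, as 87.9% of all genes were. The 5 genes above it were Vitvi11g00237, Vitvi08g01393, Vitvi11g01045, Vitvi07g04495 and Vitvi18g00384, named after their values were seen, of which Vitvi07g04495 held 8 counts in this library. Vitvi11g01045 kept the clearest difference in this library, with 10.7 CPM against 3.86 to 6.13 CPM at nodes 5 and 10, but stood at 32.4 and 21.9 CPM in the other replicates. Without this library all 102 genes met the 3-fold node limits, and the median ratio of node 2 to the higher of the other nodes at BBCH77 went from 5.65 to 8.11. Both had to follow, since this library was the lowest of node 2 for all 102 genes, so nothing is read from them.

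The level at node 2 differed widely among the genes, from 5.72 to 4954 CPM at BBCH63 with a median of 179 CPM. The 10 most abundant genes held 46.3% of the summed level, and the 5 most abundant held 32.6%. The ratio of node 2 to the higher of the other nodes had a median of 5.51 at BBCH63 and ranged from 3.04 to 116. Across the 3 node 2 libraries of BBCH63 the coefficient of variation had a median of 21.4% and reached 88.3%.

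Vitvi08g00690 was the most abundant of the 102 genes. At node 2 it stood at 4637, 4551 and 5675 CPM at BBCH63 and at 9662, 7669 and 253 CPM at BBCH77. At node 5 it stood at 522, 371 and 148 CPM at BBCH63 and at 322, 279 and 304 CPM at BBCH77, and its 4 kept node 10 libraries of these stages lay between 157 and 260 CPM. Only replicate 3 of BBCH77 node 2 fell among the other nodes. At BBCH90 all 8 kept libraries lay between 366 and 497 CPM, and these levels were above those of node 10 at BBCH63. The node 5 libraries, at 429 CPM or more, were then above those of nodes 2 and 10, at 423 CPM or less. The log2 fold change from node 2 to node 5 was 0.23 ± 0.68 (SE) in edgeR, with an adjusted p of 0.983.

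Vitvi07g00353, next in abundance, had a smaller ratio between nodes because nodes 5 and 10 also held much of it. At BBCH63 it was at 2605, 3431 and 3752 CPM at node 2, at 1036, 980 and 724 CPM at node 5 and at 1020 and 962 CPM at node 10. At BBCH77 node 2 had 9336, 7109 and 633 CPM, against 416 to 936 CPM in the 6 libraries of nodes 5 and 10, the one left out included. At BBCH90 its level was 419 to 432 CPM at node 2, 422 to 543 CPM at node 5 and 523 to 547 CPM at node 10. The node 10 libraries were then above all node 2 libraries, opposite to the earlier stages.

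Vitvi01g01538 and Vitvi10g00841 gave larger ratios. Vitvi01g01538 was at 775, 1358 and 1559 CPM at node 2 at BBCH63, at 151, 89.3 and 45.1 CPM at node 5 and at 36.0 and 20.9 CPM at node 10. Vitvi10g00841 was at 1065, 1164 and 1411 CPM at node 2, at 82.1, 46.0 and 35.1 CPM at node 5 and at 30.7 and 28.0 CPM at node 10. For both genes the node 10 libraries were the lowest of the stage. At BBCH90 Vitvi10g00841 lay between 46.5 and 56.2 CPM in all 8 kept libraries, whereas Vitvi01g01538 lay between 33.3 and 108 CPM. The other genes among the 10 most abundant, Vitvi18g01231, Vitvi18g00037, Vitvi14g01193, Vitvi11g01427, Vitvi10g01568 and Vitvi11g00237, had node 2 libraries between 793 and 2031 CPM at BBCH63.

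**Figure D2:**
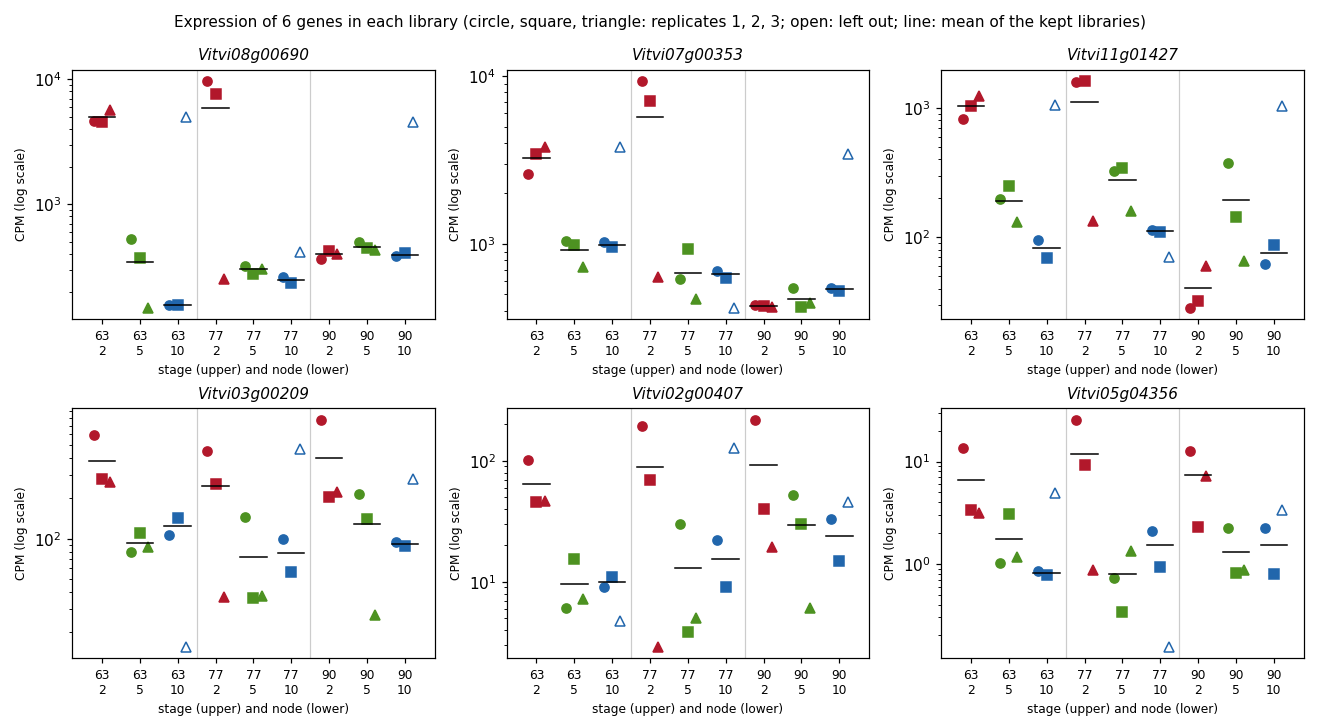
CPM (log scale) of 6 of the genes in each of the 27 libraries, by stage (63, 77 and 90) and node. Circles, squares and triangles are replicates 1, 2 and 3, open symbols are the libraries left out, and lines are means of the kept libraries. Vitvi08g00690, Vitvi07g00353 and Vitvi11g01427 are high in BBCH63 node 10 replicate 3, at 4950, 3783 and 1056 CPM, while Vitvi03g00209 and Vitvi02g00407 are there at 15.7 and 4.73 CPM, below every kept library of the stage.

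The step from BBCH77 to BBCH90 set node 2 apart from the other nodes. The node 2 mean at BBCH90 was a median of 0.104 times that at BBCH77, and 99 of the 102 genes were at or below 0.5 times, as 25.7% of all genes were. Without BBCH77 node 2 replicate 3 the median was 0.0719, with 66 genes at or below 0.1 times. At node 5 the median was 0.859, with 33 genes at or below 0.5 times (29.2% of all genes), and at node 10 it was 0.770, with 36 such genes (29.8% of all genes). From BBCH63 to BBCH77 the node 2 median was 0.962, or 1.37 without replicate 3 of BBCH77. These steps follow in part from the rule, which asked for high node 2 levels at BBCH63 and BBCH77 and not at BBCH90, and they were not tested.

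At BBCH90 the question was whether the difference between nodes remained, and for most of the genes it did not. The node 2 mean was above both other means for 38 genes (28.4% of all genes) and below both for 47 (33.5% of all genes). The ratio to the higher of the other nodes had a median of 0.835, against 0.926 over all genes tested, and ranged from 0.0861 to 4.90. At least 2 times both other means were reached by 13 genes (2.8% of all genes), and 4 of these reached 3 times. These counts depend on single libraries, and most on BBCH90 node 2 replicate 1. Without BBCH90 node 2 replicate 1 the node 2 mean was above both others for 20 genes (32% of all genes), and 1 gene, Vitvi05g04356, reached 2 times and also 3 times (1.49% of all genes at 2 times). The number at 2 times was 21 without BBCH90 node 2 replicate 2 (3.55% of all genes), 20 without node 5 replicate 1 of that stage (3.94%) and 7 without its node 10 replicate 2 (2.73%). In 2 genes all node 2 libraries were above all 5 others (2.41% of all genes), and in 11 they were below (2.2% of all genes).

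In edgeR's quasi-likelihood test over the 24 libraries none of the 102 genes was differentially expressed at BBCH90, defined by a Benjamini-Hochberg adjusted p under 0.05 over all 22999 genes and at least a 2-fold change. The count over all genes was also 0 in each of the 3 contrasts between nodes (0% called). Between nodes 5 and 2, 10 of the 102 genes had an unadjusted p under 0.05, 3 higher and 7 lower in node 5, beside 7.88% of all genes. Between nodes 10 and 2 there were 6, all lower in node 10 (9.5% of all genes). Between nodes 10 and 5 there were 2 (9.08% of all genes). DESeq2 called 0 of the 102 genes in these contrasts and 178, 131 and 153 genes over the whole table (0.609, 0.448 and 0.523%). The median log2 fold change of the 102 genes was 0.23 from node 2 to node 5, -0.03 from node 2 to node 10 and -0.25 from node 5 to node 10, where the median of all genes was 0.03, 0.01 and -0.03.

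Leaving out BBCH77 node 2 replicate 3, which is in none of these contrasts but enters the shared estimate of the spread, raised the number with an unadjusted p under 0.05 to 42 between nodes 5 and 2, 20 between nodes 10 and 2 and 12 between nodes 10 and 5 (9.92, 11.8 and 11.2% of all genes). In edgeR still 0 of the 102 genes passed the adjusted limit, beside 0.00435, 0 and 0.00435% of all genes. DESeq2 without this library, an alternative chosen after seeing the data, called 6 of the 102 genes between nodes 5 and 2 (0.847% of all genes) and 1, Vitvi01g00286, as lower at node 10 than at node 2 (0.634% of all genes). Higher in node 5 were Vitvi11g01427, Vitvi02g04078 and Vitvi14g01193, and lower were Vitvi02g00270, Vitvi03g00509 and Vitvi03g04201. Whether node 2 and node 5 differ for these genes at harvest thus depends on the tool and on 1 library of another stage.

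Vitvi11g01427 had the lowest ratio of node 2 to the other nodes at BBCH90 among the genes with at least 1 CPM at node 2, at 0.209. At node 2 it was at 28.6, 32.4 and 60.6 CPM, at node 5 at 373, 144 and 65.8 CPM and at node 10 at 62.7 and 87.7 CPM. All node 2 libraries were the lowest, although the spread within node 5 was wide. The log2 fold change from node 2 to node 5 was 2.24 ± 0.68 (SE) in edgeR, with an adjusted p of 0.300. At BBCH63 the same gene had been at 814, 1032 and 1237 CPM at node 2, 197, 250 and 131 CPM at node 5 and 95.8 and 69.5 CPM at node 10, so the order of nodes 2 and 5 was opposite at the 2 stages.

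The other genes with the smallest ratios at BBCH90 were Vitvi14g01193 (0.395), Vitvi12g04202 (0.478), Vitvi08g04335 (0.496) and Vitvi11g01045 (0.496). Vitvi14g01193 was at 28.4, 19.4 and 24.3 CPM at node 2, at 107, 51.7 and 23.6 CPM at node 5 and at 34.2 and 41.9 CPM at node 10. Vitvi08g04335 was lower but without overlap, with 3.27, 3.95 and 4.45 CPM at node 2 against 5.26 to 10.8 CPM in the 5 other libraries. Vitvi11g01045 was highest at node 5, with 28.2, 9.13 and 6.46 CPM against 11.1, 3.50 and 7.15 CPM at node 2 and 2.09 and 3.25 CPM at node 10. Its log2 fold change from node 5 to node 10 was -2.46 ± 0.77 (SE) in edgeR, with an adjusted p of 0.312, the lowest p among the 102 genes in that contrast.

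At the other end, Vitvi05g04356 had the largest ratio at BBCH90, at 4.90. It was a gene of low level, with 12.8, 2.28 and 7.20 CPM at node 2, 2.22, 0.824 and 0.879 CPM at node 5 and 2.24 and 0.799 CPM at node 10. All 3 node 2 libraries were above the others, and Vitvi15g01090 was the only other gene of the 102 with this order. From node 2 to node 5 the log2 fold change of Vitvi05g04356 was -2.49 ± 0.96 (SE) in edgeR, with an adjusted p of 0.463. Vitvi15g01090 was at 64.4, 28.2 and 29.3 CPM at node 2 and between 20.5 and 25.2 CPM in the other libraries.

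Vitvi02g00407 (3.14), Vitvi03g00209 (3.13), Vitvi08g01194 (3.12) and Vitvi19g00528 (2.92) followed. Vitvi03g00209 was at 772, 204 and 223 CPM at node 2 at BBCH90, at 215, 141 and 27.03 CPM at node 5 and at 95.2 and 87.7 CPM at node 10. Vitvi02g00407 was at 218, 39.9 and 19.3 CPM at node 2, at 52.1, 30.2 and 6.13 CPM at node 5 and at 33.3 and 14.8 CPM at node 10. In both genes replicate 1 carried much of the node 2 mean, and the other node 2 libraries of Vitvi02g00407 overlapped nodes 5 and 10. In Vitvi03g00209 the lowest node 2 library, at 204 CPM, lay below the highest of node 5, at 215 CPM. From node 2 to node 10 the log2 fold change of Vitvi03g00209 was -2.14 ± 0.96 (SE) in edgeR, with an adjusted p of 0.492. From node 2 to node 5 that of Vitvi02g00407 was -1.64 ± 1.11 (SE), with an adjusted p of 0.796, and without BBCH90 node 2 replicate 1 it went to -0.0035.

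The library labelled BBCH63 node 10 replicate 3 held the 102 genes at 30906 CPM in sum, 6.69 times the mean of the other node 10 libraries. Of the 102 genes, 85 were above all 5 kept libraries of nodes 5 and 10 (27.1% of all genes), and 77 were at least 3 times the mean of the other node 10 libraries (5.64% of all genes). Relative to the BBCH63 node 2 libraries, 29 genes lay within their range, 64 below and 9 above, and the median was 0.698 times the node 2 mean. Vitvi08g00690 stood at 4950 CPM and Vitvi01g01538 at 1597 CPM in this library, within or just above the node 2 range. The part of the label in these values was not tested.

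The genes did not all follow in that library. In 25 genes the level was under 3 times the mean of the other node 10 libraries, down to 0.125 times. Vitvi03g00209 stood at 15.7 CPM there against 107 and 143 CPM in the other node 10 libraries, Vitvi02g00270 at 20.7 CPM against 66.8 and 103 CPM, and Vitvi08g02051 at 6.45 CPM against 46.7 and 39.3 CPM. These 3 genes, high at node 2 like the rest, were thus lower in this library than in any kept library of the stage. The split at 3 was chosen after the values were seen.

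**Figure D3:**
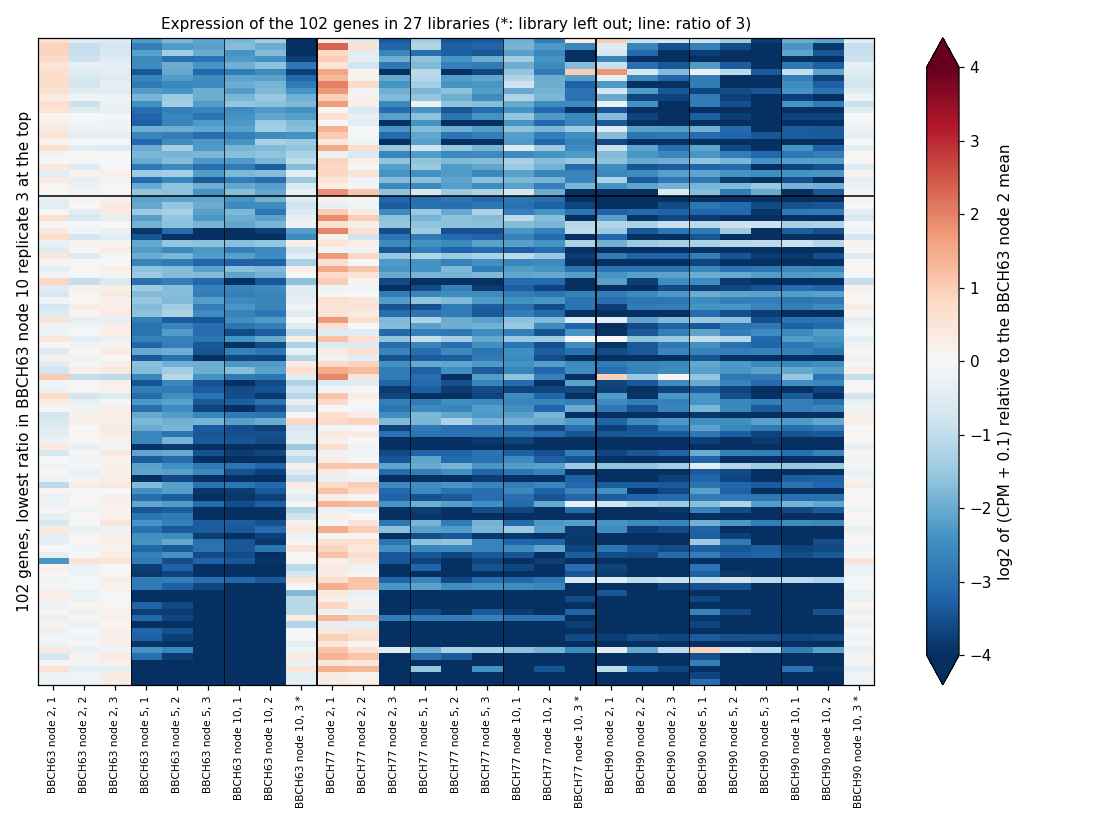
Levels of the 102 genes (rows) in the 27 libraries (columns, stage, node and replicate), as log2 of (CPM + 0.1) relative to the BBCH63 node 2 mean, with colours ending at -4 and 4. Rows are ordered by the ratio of BBCH63 node 10 replicate 3 to the other node 10 libraries of that stage, asterisks mark libraries left out, and the horizontal line separates the 25 genes under 3 from the other 77. In that library the 77 genes have a median of 73.8% of the BBCH63 node 2 mean and the 25 genes a median of 26.4%.

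The same 25 genes were then compared with the other 77 in libraries that took no part in the split. At BBCH90 the node 2 mean was the highest for 22 of the 25 genes, with a median ratio of 1.76 to the higher of the other nodes, and for 16 of the 77, with a median ratio of 0.741. Over all genes tested it was the highest for 28.4%, with a median ratio of 0.926. At least 2 times both other nodes were reached by 10 of the 25, by 3 of the 77 and by 2.8% of all genes. Without BBCH90 node 2 replicate 1, node 2 was the highest for 12 of the 25, with a median ratio of 0.982, and for 8 of the 77, with a median ratio of 0.779. Over all genes it was then the highest for 32%, with a median ratio of 0.941. In that setting 2 times were reached by 0 of the 25, by 1 of the 77 and by 1.49% of all genes. Without this library the 25 genes thus had a median ratio below 1. Node 2 was still the highest for 48% of them, above the share of all genes, and for 10.4% of the 77, below it. With replicate 1 of every node at BBCH90 left out, node 2 was the highest for 19 of the 25, 13 of the 77 and 31.6% of all genes. The median ratios were 1.29, 0.817 and 0.937, and 2 times were reached by 3 of each set and by 2.47% of all genes. Like the other omissions at BBCH90, this one was chosen after seeing the data. Over the 102 genes the Spearman correlation between the ratio in BBCH63 node 10 replicate 3 and the ratio at BBCH90 was -0.56, and -0.47 without BBCH90 node 2 replicate 1, a description across genes of the same libraries. Of the 33 genes at least 10 times higher in that library, 6 had node 2 highest at BBCH90.

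**Figure D4:**
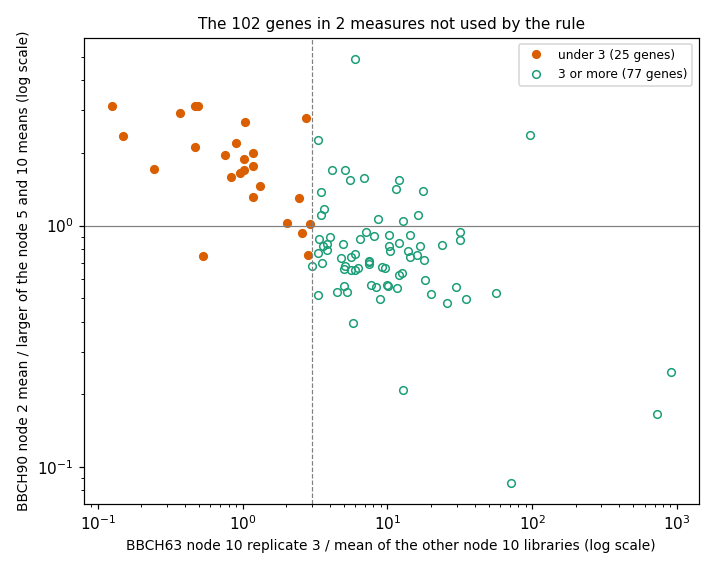
Each point is 1 of the 102 genes, with its level in BBCH63 node 10 replicate 3 relative to the other node 10 libraries of that stage (horizontal, log scale) and the ratio of the node 2 mean to the higher of the node 5 and node 10 means at BBCH90 (vertical, log scale). The dashed line is the ratio of 3 and the solid line equal levels, and 22 of the 25 filled points lie above the solid line against 16 of the 77 open points, or 12 and 8 without BBCH90 node 2 replicate 1.

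The replicates of node 2 also differed between the sets of 25 and 77 genes. At BBCH63 replicate 1 was the highest node 2 library for 22 of the 25 genes and for 22 of the 77. Relative to the BBCH63 node 2 mean, the median of the 25 genes was 141% in replicate 1, 79.4% in replicate 2 and 83.9% in replicate 3, whereas the medians of the 77 genes were 89.2, 95.3 and 114%. At BBCH77 the 25 genes had medians of 187% in replicate 1 and 95.5% in replicate 2, and the 77 genes 145 and 122%. At BBCH90 replicate 1 was again the highest node 2 library for 22 of the 25 genes, with a median of 30.1% against 13.1 and 9.85% in replicates 2 and 3, while the medians of the 77 genes were 7.61, 7.16 and 8.25%. Replicate 1 also had the highest median of the 25 genes at the other nodes of the later stages. It was 31.8% at node 5 of BBCH77, against 19.3 and 17.7%, and 27.8% at node 10, against 19.1% in replicate 2. At BBCH90 it was 14.2% at node 5, against 8.31 and 4.31%, and 13.7% at node 10, against 9.68%. The medians of the 77 genes were also highest in replicate 1 at BBCH77. They were 13.9% at node 5, against 12.1 and 12.6%, and 12.9% at node 10, against 10.8%. At BBCH90 the 77 genes had 13.4% in replicate 1 at node 5, against 8.95 and 6.46%, but 8.21% at node 10, against 8.70%. At BBCH63 replicate 1 had the lowest median of the 25 genes among the kept libraries at both of these nodes. The unevenness of the 25 genes among pools was thus not limited to node 2, and its order was shared in part by the 77 genes. What the replicates of a number share is not given in the sources used here.

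The rule did not compare nodes 5 and 10 with each other, although their levels at BBCH63 and BBCH77 each entered it against node 2. At BBCH63 the node 10 mean was below the node 5 mean for 78 of the 102 genes (58.4% of all genes), with a median ratio of 0.691 against 0.961 over all genes tested. Both node 10 libraries were below all 3 of node 5 for 35 genes (23% of all genes) and above them for 10 (11.5% of all genes). At BBCH77 the median ratio was 0.987, with 54 genes below (58.6% of all genes), and at BBCH90 it was 0.862, with 76 genes below (48.5% of all genes). In edgeR 0 of the 102 genes and 0% of all genes were called between these nodes at BBCH63 or BBCH77, and 1 and 0 of the 102 had an unadjusted p under 0.05 (10.8 and 3.41% of all genes). DESeq2 also called 0 of the 102, beside 0.359 and 0.00342% of all genes. The 2 tests of whether node 10 vs node 5 changed between BBCH90 and the earlier stages called 0 of the 102 in both tools, beside 0% of all genes in edgeR and 0.00684 and 0.024% in DESeq2. In edgeR 0 and 1 of the 102 had an unadjusted p under 0.05 there (4.88 and 6.06% of all genes). Replicate 3 was the lowest library of node 5 at BBCH63, at 4362 CPM in sum, below both kept libraries of node 10.

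Without BBCH77 node 2 replicate 3, DESeq2 called 8 of the 102 genes lower at node 10 than at node 5 at BBCH63 (0.607% of all genes), with log2 fold changes from -1.69 to -1.01. EdgeR without that library called 0 (0.00435% of all genes), with 31 at an unadjusted p under 0.05 (13.8% of all genes). The 8 genes were Vitvi01g00091, Vitvi01g01538, Vitvi06g01344, Vitvi08g00690, Vitvi08g01540, Vitvi08g04335, Vitvi14g01591 and Vitvi18g04647. Vitvi18g04647 had the lowest adjusted p in this alternative, 0.00498 in DESeq2, and a log2 fold change of -1.40 ± 0.33 (SE). In edgeR over the 24 libraries its value was -1.38 ± 0.67 (SE), with an adjusted p of 0.469.

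By their identifiers, which carry the chromosome, 12 of the 102 genes were on chromosome 12 (11.8% of the genes, against 4.97% of the table), 11 on chromosome 1 and 10 on chromosome 18. In 11 places at least 2 of the genes had identifier numbers at most 10 apart. The longest run was Vitvi12g02456, Vitvi12g02457, Vitvi12g02458, Vitvi12g02459, Vitvi12g02461, Vitvi12g02465 and Vitvi12g02466, which are all 7 genes that the table holds between the first and the last of these identifiers. Vitvi12g04202, Vitvi12g04203 and Vitvi12g04205 formed another, 3 of the 4 genes of the table in that span. Coordinates and sequences of these genes were not used here, so whether neighbours share reads as near-identical copies was not tested.

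The 7 neighbours, each chosen for its level at node 2, covered a wide range of levels. Not all neighbouring identifiers shared the pattern, since Vitvi12g02470, outside the run and not among the 102, had means of 78.1 CPM at node 2, 100.5 CPM at node 5 and 108.6 CPM at node 10 at BBCH63. Vitvi12g02468, nearer to the run, did share it, with means of 168, 18.4 and 5.56 CPM. It was outside the 102 because its stage mean ratio of BBCH77 to BBCH63 was 0.492. Vitvi12g02456, the highest, was at 810, 622 and 746 CPM at node 2 at BBCH63, at 51.6, 77.4 and 25.2 CPM at node 5 and at 19.8 and 27.9 CPM at node 10. Vitvi12g02461 was at 111, 77.4 and 87.1 CPM at node 2, at 4.53, 4.57 and 2.27 CPM at node 5 and at 2.02 and 2.71 CPM at node 10. Vitvi12g02465, the lowest of the 7, was at 53.7, 53.4 and 66.2 CPM at node 2, at 5.24, 9.37 and 5.02 CPM at node 5 and at 3.03 and 4.77 CPM at node 10. The ratio of node 2 to the higher of the other nodes went from 6.45 in Vitvi12g02466 to 24.2 in Vitvi12g02461. In BBCH63 node 10 replicate 3 all 7 were above the other node 10 libraries, from 5.28 times in Vitvi12g02466 to 19.9 times in Vitvi12g02458, and below every node 2 library of the stage.

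At BBCH90 the 7 genes were low at all nodes. Vitvi12g02456 was at 55.9, 22.4 and 34.2 CPM at node 2, at 93.4, 42.3 and 16.7 CPM at node 5 and at 28.4 and 43.7 CPM at node 10, with full overlap. Nodes 2 and 10 also overlapped in Vitvi12g02465. In Vitvi12g02457, Vitvi12g02458, Vitvi12g02459, Vitvi12g02461 and Vitvi12g02466 both node 10 libraries were above all 3 of node 2. Vitvi12g04202 of the other run was at 404, 308 and 391 CPM at node 2 at BBCH63 and at 7.76, 7.07 and 10.7 CPM at BBCH90, when node 5 had 28.8, 15.2 and 9.48 CPM and node 10 had 15.4 and 16.8 CPM. Both node 10 libraries of Vitvi12g04202 were likewise above all 3 of node 2 at BBCH90. Its log2 fold change from node 2 to node 10 was 0.90 ± 0.77 (SE) in edgeR, with an adjusted p of 0.775.

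**Figure D5:**
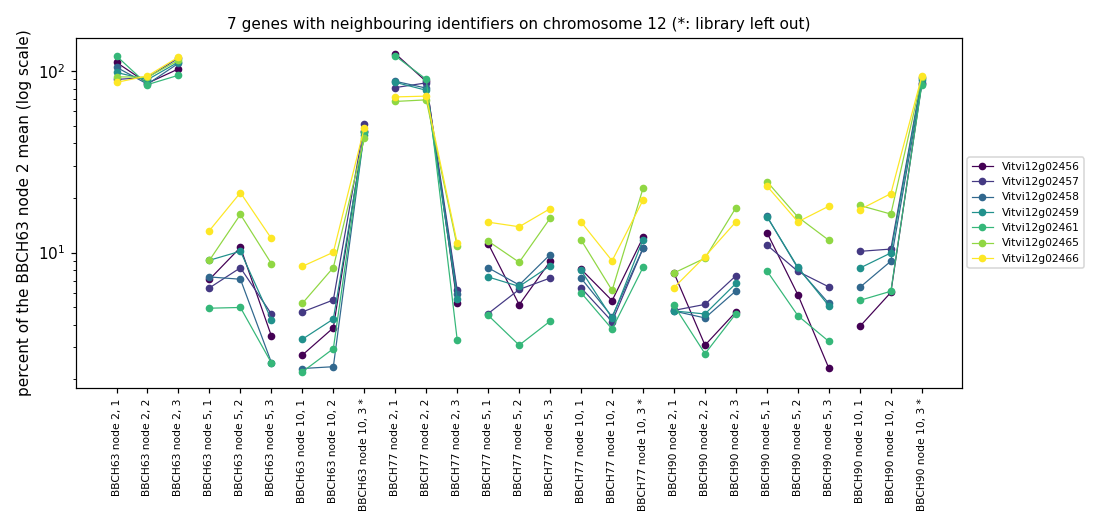
Level of 7 genes with neighbouring identifiers on chromosome 12, in percent of each gene's BBCH63 node 2 mean (log scale), in the 27 libraries (stage, node and replicate). Lines join the replicates of a group and asterisks mark libraries left out. Vitvi12g02461 is the lowest of the 7 in BBCH77 node 2 replicate 3, where it stands at 3.03 CPM, and all 7 are high in BBCH63 node 10 replicate 3.

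The largest ratios at BBCH63, 116 and 103, were those of Vitvi00g04810 and Vitvi07g04495, which had mean levels of 12.6 and 11.9 CPM at node 2 and at most 11 counts in any kept library of nodes 5 and 10 at BBCH63. Both ratios rest on these few counts. The levels of the pair were near equal in the node 2 libraries, and whether the pair shares reads was not tested, so it is uncertain as 2 genes. Just inside the 3-fold limit were Vitvi02g00790, Vitvi03g00209 and Vitvi11g00046, each with a smallest ratio of 3.04. Just outside were Vitvi07g04740 at 2.97, Vitvi08g01539 at 2.95 and Vitvi05g01918 at 2.92, of which Vitvi08g01539 was abundant, at 1415 CPM at node 2 at BBCH63. In the contrasts that the rule used, edgeR called 92 of the 102 genes lower at node 5 and 80 lower at node 10 at BBCH63 (3.12 and 2.99% of all genes), and 96 and 67 at BBCH77 (3.7 and 1.33% of all genes), which repeats the choice of the genes and is no result.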

How the data were processed

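RNA was extracted from buds and sequenced from stranded mRNA libraries. Per the labels, the submitters' processing notes name FastQC, HISAT2 and HTSeq, without versions. The genome was PN40024.v4, and the strand setting of the counting is not given in the sources used here, so overlapping and antisense genes are uncertain. The deposited values are raw counts per gene made by the authors, without normalization. The 102 genes, the lists and the rule for named genes were chosen with earlier results of these data known. Named genes are the 10 with the highest mean at node 2 at BBCH63, the 5 with the largest and 5 with the smallest ratio at BBCH90 among genes with at least 1 CPM at node 2 there, the 3 nearest on each side of the 3-fold limit and runs of at least 3 neighbouring identifiers. Others were named after their values were seen.

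CPM used column totals. Counts of the 24 libraries were tested in edgeR 4.0.16 (R 4.3.3) with filterByExpr (minimum count 10), TMM, 1 mean per group and its quasi-likelihood test, and Benjamini-Hochberg adjustment covered 22999 genes. All 102 genes passed the filter, and each also held enough counts outside node 2 of BBCH63 and BBCH77. Standard errors are the log2 fold change over the square root of the F value. DESeq2 1.42.0 was an alternative. On simulated data of the BBCH90 node 5 vs node 2 contrast, edgeR recovered 94% of 200 genes changed 4-fold, with 4 false calls among 22999 genes, and DESeq2 97.5% with 19. The changed genes were drawn above a minimum mean count, and no simulated library stood apart from its label. These shares therefore do not give the power of the test on the measured counts. Figures and summaries used Python 3.11.15. Promoter motifs and function lists were not analysed here.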

Additional observations from a re-analysis of the deposited data

Results flagged for a closer look

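A signal of the 102 genes appeared in libraries that the comparisons did not use. The library labelled BBCH63 node 10 replicate 3 held them at 30906 CPM in sum, where the kept libraries of nodes 5 and 10 of that stage lay between 4362 and 6970 CPM. The library labelled BBCH90 node 10 replicate 3 held them at 36338 CPM, where the kept libraries of nodes 5 and 10 of that stage lay between 3503 and 5832 CPM. The counts of the latter equal those of BBCH63 node 2 replicate 2, which the rule used, so its level is not a separate measurement. The third library left out, BBCH77 node 10 replicate 3, held them at 4843 CPM, within the range of nodes 5 and 10. The part of the labels in these levels was not tested.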

How the results depend on the processing

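The number of genes that met the rule, 102, was 130 with TMM, 127 with DESeq2 size factors and 83 with all 27 libraries, of which 99, 97 and 56 were among the 102. It was 200, the largest number kept, with a 2-fold limit and 59 with a 4-fold limit, and with each library left out it went from 58 to 114. The 58 came without BBCH77 node 2 replicate 1, where 41 of the 102 remained, and the 114 without replicate 3 of that group, where 94 remained. Medians of the libraries gave 104 genes, of which 68 were among the 102, so the list depends on single libraries of node 2. Stage means weighted by node, chosen after seeing the data, gave 104 with all 102 among them.

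In the 7 contrasts that the rule did not use, 0 of the 102 genes were called in 221 of 224 combinations of contrast and alternative. The exceptions were DESeq2 without BBCH77 node 2 replicate 3, with 6 genes in the BBCH90 contrast of nodes 5 and 2, 1 in that of nodes 10 and 2, and 8 in the BBCH63 contrast of nodes 10 and 5. With all 27 libraries the median log2 fold change at BBCH90 was 1.76 from node 2 to node 10 and 1.75 from node 5 to node 10, and that of Vitvi19g00528 from node 2 to node 10 turned from -1.54 to 1.39. These values include the library whose counts equal those of BBCH63 node 2 replicate 2. In the contrasts that the rule used, all 27 libraries gave 0 calls at each stage, and an adjusted p of 0.01 gave 53 and 48 at BBCH63 and 60 and 0 at BBCH77, for nodes 5 and 10 against node 2. With only the compared groups fitted there were 0 and 0 at BBCH77, and DESeq2 without BBCH77 node 2 replicate 3 gave 101 for node 10 there. With each library left out, calls ranged from 51 to 98 and from 0 to 91 at BBCH63, and from 45 to 102 and from 0 to 102 at BBCH77. The lowest counts came without BBCH63 node 5 replicate 3 (51), BBCH63 node 10 replicate 1 (0, and 6 without its replicate 2), BBCH77 node 2 replicate 1 (45) and, for node 10 at BBCH77, any 1 of 11 libraries (0), and the highest, 98, 91, 102 and 102, without BBCH77 node 2 replicate 3. The causes were not tested.

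The condition for treating equal replicate numbers as pairs, a correlation of deviations over 0.1 in every pair of same-numbered libraries of a stage, was not met. It was over 0.1 in 6 of 21 pairs, with a range from -0.17 to 0.45, so a link in part of the libraries is possible and was not tested further. With a replicate block 0 of the 102 genes were called in each contrast that the rule did not use, as without it.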
